A study of Mus musculus with 3 samples.

Results

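The NMDA receptor subunit genes were followed through the cells of the medial prefrontal cortex (mPFC) of the mouse, which lies on the inner face of the frontal lobe. The members were Grin1, Grin2a, Grin2b, Grin2c, Grin2d and Grin3a, the 6 genes of the 32285 listed whose symbols name a subunit chosen for this description. The rule matches symbols and uses no measured value, but the members were chosen with earlier results of these data known. Droplet single-cell RNA libraries had been made from 3 groups: females in estrus, the receptive stage of the cycle, females in diestrus, a non-receptive stage, and males, to compare cycle stages and sexes. In each group 2 mice were pooled into 1 library, so the mice of a group cannot be separated, and 15000 cells were loaded per library. No transgene, injection or other treatment is named for any group, with strain and age not given in the sources used here.

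Typical NMDA receptors are glutamate-gated cation channels that need a co-agonist, glycine or D-serine, and whose magnesium block eases when the membrane is depolarised. Each receptor combines the obligatory GluN1 subunit, which binds the co-agonist and is encoded by Grin1, with GluN2 subunits (Grin2a to Grin2d), which bind glutamate and set gating speed and magnesium block, or with GluN3 subunits (Grin3a and Grin3b), which bind glycine and lower calcium entry. In cortex GluN2B predominates early and GluN2A increases with maturation, while GluN2C, GluN2D and GluN3A are known from restricted sets of cells.

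All cells were analysed, although the labels call the samples neurons. Cells were assigned to classes from marker genes that include no member, and every class name below means cells that resemble that type by those markers. Glutamatergic neurons made up 10.3%, 11.03% and 9.001% of retained cells in the estrus, diestrus and male libraries, and GABAergic neurons made up 1.34%, 2.12% and 2.06%. Microglia were the largest class in estrus, with 26.3% of cells. Glutamatergic neurons held medians of 38815, 28173 and 16283 unique molecular identifiers (UMIs, counted RNA molecules) per cell in estrus, diestrus and male, so neurons of the male library were the shallowest. Between 42 and 55 retained barcodes were shared by any pair of libraries, of 12300, 14129 and 15565 retained cells. Levels are given as CPM, UMIs of the gene per 1000000 UMIs of the class, always in the order estrus, diestrus and male. Intervals cover counting error only. Levels are compared between classes and libraries and never between genes.

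All 6 genes lie on the minus strand of the mm10 genome. Grin1 (ENSMUSG00000026959) lies at chr2:25291181-25319187 and spans 28.01 kb. Grin2a (ENSMUSG00000059003) lies at chr16:9567898-9995560 and spans 428 kb, and Grin2b (ENSMUSG00000030209) lies at chr6:135713233-136173511 and spans 460.3 kb. Grin2c (ENSMUSG00000020734) lies at chr11:115249169-115267243 and is the shortest at 18.1 kb. Grin2d (ENSMUSG00000002771) lies at chr7:45831883-45878378 and spans 46.5 kb. Grin3a (ENSMUSG00000039579) lies at chr4:49661611-49845744 and spans 184 kb. Several members overlap other genes: Grin1 overlaps the antisense gene Grin1os, Grin2b overlaps the antisense genes Gm14330 and Gm26653, and Grin2d overlaps the opposite-strand genes Kdelr1 and Gm45441. Kdelr1 held 22812 UMIs in all cells against 1530 for Grin2d. With strand use in the counting not given in the sources used here, reads in these overlaps cannot be assigned, and the values of Grin1, Grin2b and Grin2d carry that limit. Ppp3r2 lies inside Grin3a on the same strand and held 94 UMIs against 14371 for Grin3a.

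Promoter sequences were at hand for 3 of the 6 members and are shown because these 3 genes had unlike cell distributions below: Grin1 in all neurons, Grin2d in GABAergic neurons and Grin2c in astrocytes. The 250 bases before each RefSeq start (GRCm38.p6, minus strand, 5′ to 3′) are printed in lower case. Capitals mark the GC box GGGCGG or its reverse complement CCGCCC, the short motif bound by Sp-family factors. Overlapping matches are joined.
Grin1, chr2:25319188-25319437: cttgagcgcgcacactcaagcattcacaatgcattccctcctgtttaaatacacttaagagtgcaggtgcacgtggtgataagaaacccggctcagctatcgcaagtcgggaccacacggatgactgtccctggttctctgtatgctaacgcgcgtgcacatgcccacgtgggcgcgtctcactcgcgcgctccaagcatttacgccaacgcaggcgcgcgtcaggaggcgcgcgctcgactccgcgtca
Grin2c, chr11:115267244-115267493: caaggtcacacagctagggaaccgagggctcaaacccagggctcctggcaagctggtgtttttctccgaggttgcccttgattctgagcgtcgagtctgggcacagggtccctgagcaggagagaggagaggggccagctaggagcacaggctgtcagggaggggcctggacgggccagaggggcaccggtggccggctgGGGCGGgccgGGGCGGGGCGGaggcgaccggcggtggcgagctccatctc
Grin2d, chr7:45866682-45866931: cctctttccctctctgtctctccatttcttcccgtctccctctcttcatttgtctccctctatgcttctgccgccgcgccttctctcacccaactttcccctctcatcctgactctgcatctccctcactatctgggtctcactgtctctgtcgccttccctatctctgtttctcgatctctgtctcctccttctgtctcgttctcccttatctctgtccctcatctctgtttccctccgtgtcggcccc
The Grin2c window held 3 GC boxes and was 68.8% G or C. Neither the Grin1 window, at 58.8% G or C, nor the Grin2d window, at 54.4%, held one. Among 32851 promoter windows of this length, 32.7% held at least 1 box, and the median share of G or C was 52.4%. The RefSeq start of Grin2d lies inside the GENCODE gene, not at its annotated end. These matches describe letters only.

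Grin1, the obligatory subunit, was the member with the most even level across neurons. In glutamatergic neurons it stood at 225, 267 and 274 CPM, and in GABAergic neurons at 179, 209.5 and 242 CPM. The ranges of these classes overlapped. Each neuron class compared below was tested on summed counts with edgeR's quasi-likelihood test over the 3 libraries, with library as a block and p-values adjusted over all genes. The difference of glutamatergic over GABAergic neurons was 0.47 ± 0.21 (log2, SE) with an adjusted p of 0.097. Leaving out the male library gave 0.57 and 0.041. By subclass, mean levels of Grin1 ran from 276 ± 39.7 CPM (SD over 3 libraries) in L2/3 IT neurons, the upper-layer cells projecting within the telencephalon, to 173 ± 21.7 in Sncg interneurons. L6b neurons, of which estrus held 4, are left out of all orders and tests of subclasses. Each of the 11 subclasses compared overlapped its neighbour in that order. L2/3 IT neurons were not called against the mean of the other glutamatergic subclasses (0.14, adjusted p = 0.077) except without the estrus library (0.20, 0.042). The first gap came between Sncg interneurons, whose lowest library was 148 CPM, and the glial and vascular classes, whose highest library was 55.6 CPM in pericytes.

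**Figure D1:**
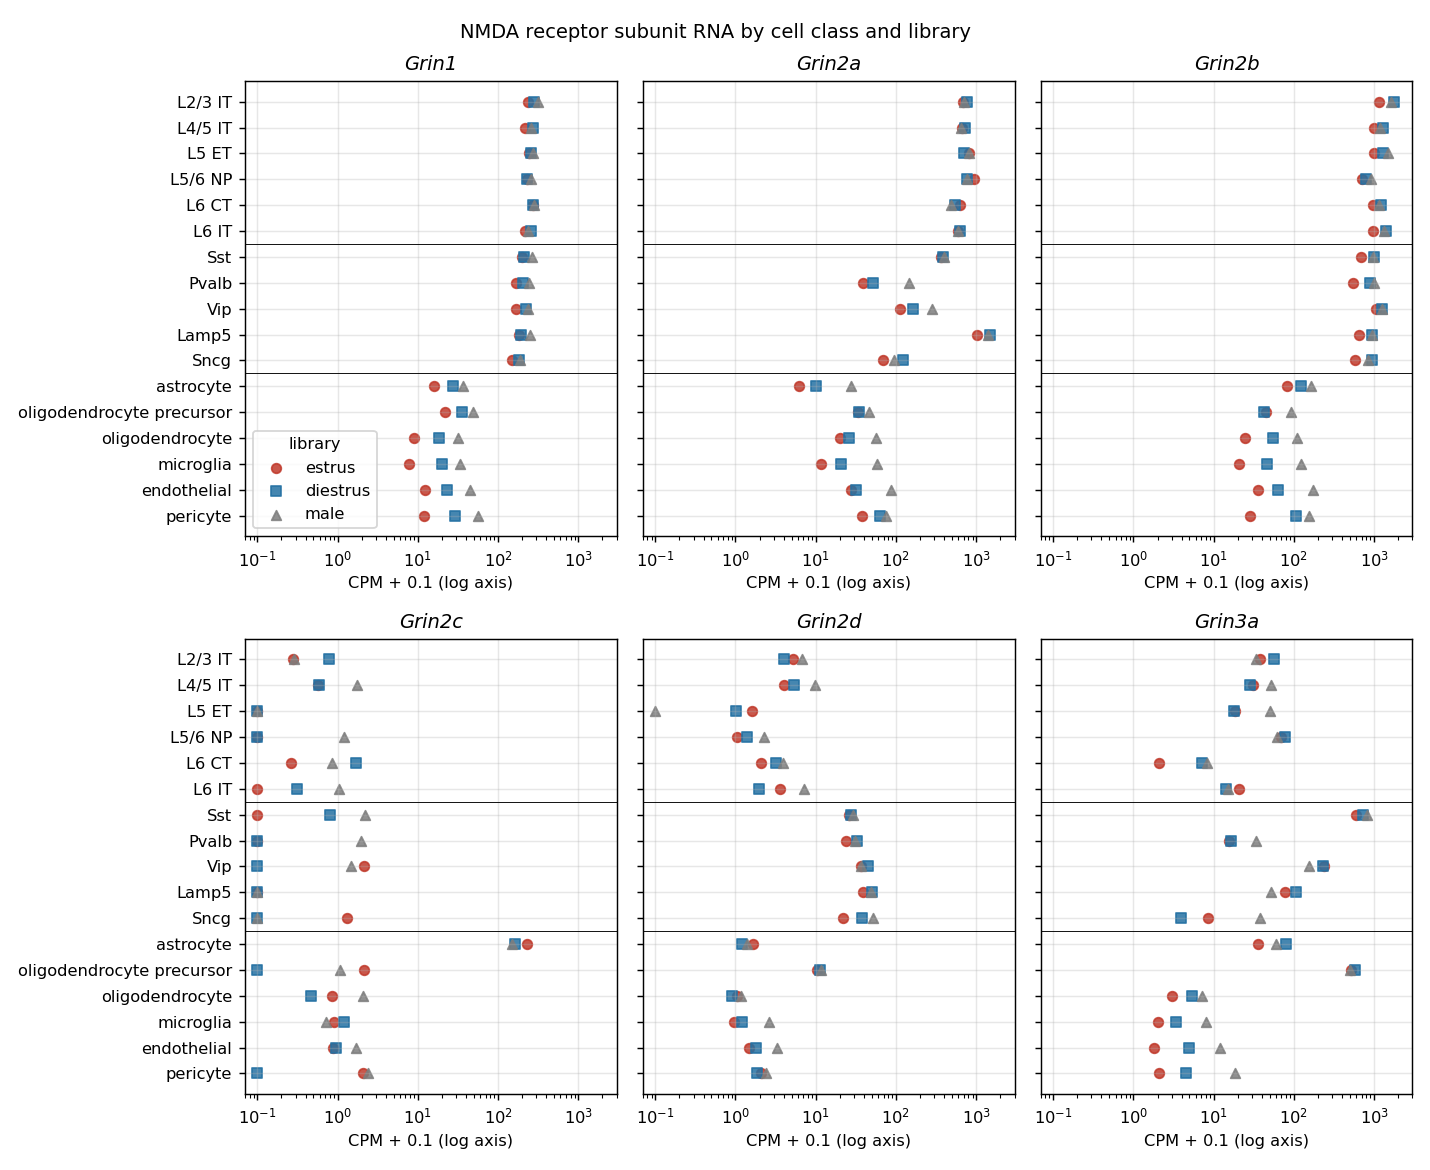
Level of each subunit gene by cell class (rows) and library (symbols), in CPM plus 0.1 on a log axis. Grin1 and Grin2b form near-vertical bands through the 11 neuron subclasses, Grin2c stands out in astrocytes (148 to 227 CPM), Grin2d in the 5 GABAergic subclasses, and Grin3a in Sst interneurons (594 to 820 CPM) and oligodendrocyte precursors (499 to 582 CPM).

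Glial levels of Grin1 need the level in cells that should lack it. Microglia, the brain's resident immune cells, served as that reference and held Grin1 at 7.78, 19.9 and 33.9 CPM, and Grin2b at 20.9, 46.5 and 123 CPM. Both were lowest in estrus and highest in male. Grin1 in astrocytes was 15.9, 27.7 and 36.0 CPM, in the same order of libraries and 1.06 to 2.05 times the microglial level. Oligodendrocytes held 8.83, 18.2 and 31.6 CPM, 0.92 to 1.13 times the microglial level. In glutamatergic neurons Grin1 stood at 8.08 to 29.0 times the microglial level. The part of free RNA in the glial values was not tested.

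Grin2a and Grin2b, the main glutamate-binding subunits of forebrain receptors, separated the neuron classes in different ways. Grin2a was higher in glutamatergic neurons, at 661, 663 and 611 CPM, than in GABAergic neurons, at 283, 406 and 380 CPM, and the classes did not overlap. The log2 difference was 1.07 ± 0.29 with an adjusted p of 0.0075. It lost the call without the estrus library (0.86, adjusted p = 0.060), without the diestrus library (1.18, 0.090) and without the library term (1.02, 0.11). Grin2b stood at 987, 1337 and 1287 CPM in glutamatergic and at 690, 1015 and 1004 CPM in GABAergic neurons, so the classes overlapped. Its difference of 0.60 ± 0.29 missed the threshold with an adjusted p of 0.13, and passed it without the male library (0.69, 0.049). Of the 6 members, 3 were called between these classes (Grin2a, Grin2d and Grin3a), against 33.5% of all genes tested.

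Lamp5 interneurons, which include neurogliaform cells, carried the highest Grin2a level of any class. Their libraries held 1014, 1482 and 1419 CPM, above every library of every other class. The difference of 3.07 ± 0.15 from the mean of the other GABAergic subclasses had an adjusted p of 8.6e-13. Across the alternatives it ranged from 2.91 to 3.42. Sst interneurons followed among GABAergic cells with 363, 382 and 397 CPM, 0.91 ± 0.16 above the mean of the others (adjusted p = 0.00017).

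Pvalb interneurons, the fast-spiking basket and chandelier cells, lay at the other end for Grin2a with 39.2, 51.6 and 146 CPM. Those values rest on 18, 35 and 159 UMIs. They were 1.94 ± 0.22 below the mean of the other GABAergic subclasses (adjusted p = 5.09e-07). Sncg interneurons, cholecystokinin cells with the cannabinoid receptor, were also low at 67.9, 122 and 94.5 CPM, a difference of -1.62 ± 0.21 (adjusted p = 5.52e-06). The microglial level of Grin2a was 11.6, 20.7 and 57.4 CPM, and Pvalb interneurons stood at 2.49 to 3.39 times it and Sncg interneurons at 1.65 to 5.90 times. Pericytes held 37.9, 63.8 and 75.4 CPM and endothelial cells 27.3, 31.2 and 86.8 CPM, which overlapped the Pvalb range, and barcodes gated as erythroid held 243, 141 and 189 CPM. How much of the Pvalb and Sncg values is background was not tested. Vip interneurons held 111, 164 and 283 CPM, and their difference of -0.42 was not called (adjusted p = 0.13), although it was without the male library (-0.57, 0.016) and without the filter on low counts (-0.44, 0.00095). The highest Pvalb and Vip values were both in the male library, in which the microglial level was highest as well.

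Among glutamatergic subclasses Grin2a varied less. L6 CT neurons, the corticothalamic cells of layer 6, were lowest of the 6 subclasses compared, with 636, 546 and 481 CPM, and were 0.38 ± 0.07 below the mean of the others (adjusted p = 0.00028). L5/6 NP neurons, the near-projecting cells, held 943, 766 and 774 CPM, 0.24 ± 0.07 above it (adjusted p = 0.013). L5 ET neurons, which project outside the telencephalon, held 809, 713 and 805 CPM, 0.22 ± 0.07 above it (adjusted p = 0.023). The NP call was lost without the estrus library (0.16, 0.16), and the ET call without the estrus library (0.21, 0.075) or the male library (0.16, 0.24). Both were also lost in the stricter gate (adjusted p = 0.058 and 0.065) and without the library term (0.064 and 0.11). L2/3 IT, L4/5 IT and L6 IT neurons were not called for Grin2a, although L4/5 IT neurons taken from clusters were lower (-0.29, adjusted p = 0.0041).

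Grin2b had its own order among glutamatergic cells. L2/3 IT neurons were highest with 1160, 1778 and 1638 CPM, 0.47 ± 0.07 above the mean of the others (adjusted p = 2.61e-06). L5/6 NP neurons were lowest with 705, 803 and 902 CPM, 0.70 ± 0.08 below it (adjusted p = 3.37e-08). Their ranges did not overlap. NP neurons therefore combined a high Grin2a with a low Grin2b level, each relative to the same gene in the other subclasses. Among GABAergic cells Vip interneurons were highest with 1044, 1256 and 1252 CPM, 0.58 ± 0.08 above the others (adjusted p = 5.84e-06), a call lost without the library term (0.56, 0.059). L5 ET neurons were called only when taken from clusters (0.26, 0.0019).

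Smaller Grin2b and Grin1 differences were weakly held. Grin2b was called lower in Pvalb (-0.22 ± 0.08, adjusted p = 0.045) and Sncg interneurons (-0.23 ± 0.08, 0.0498), and Grin1 in Sncg interneurons (-0.27 ± 0.09, 0.040) and L5/6 NP neurons (-0.20 ± 0.07, 0.031). In Sncg interneurons both calls were lost whichever library was left out, with adjusted p between 0.075 and 0.30. In Pvalb interneurons Grin2b lost the call without the estrus library (-0.14, 0.28) and without the diestrus library (-0.20, 0.25), and moved to -0.34 (0.028) without the male library. It was kept in 2 of 9 alternatives, lost also with DESeq2, without the filter, without the library term, in clusters and in the stricter gate. The Sncg calls were kept in 2 of 9 for Grin1 and in 3 of 9 for Grin2b. In NP neurons Grin1 lost it without the diestrus library (-0.12, 0.44) and without the male library (-0.19, 0.14), and was kept in 3 of 9 alternatives.

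The balance of both genes was expressed as the share of Grin2a among all Grin2a and Grin2b UMIs of a class. This share depends on how well each gene is captured and is read only between classes and libraries. Lamp5 interneurons had 61.3%, 61.4% and 60.0% Grin2a, the highest of any class in every library. L5/6 NP neurons followed with 57.2%, 48.8% and 46.2%. The other 5 glutamatergic subclasses compared lay between 29.3% (L6 CT in male) and 44.7% (L5 ET in estrus). Pvalb interneurons had 6.64%, 5.52% and 12.8%, Sncg interneurons 10.6%, 11.5% and 10.2%, and Vip interneurons 9.60%, 11.5% and 18.4%. GABAergic neurons as a whole had 29.1%, 28.6% and 27.5%, below every Lamp5 and above every Pvalb, Vip and Sncg library.

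**Figure D2:**
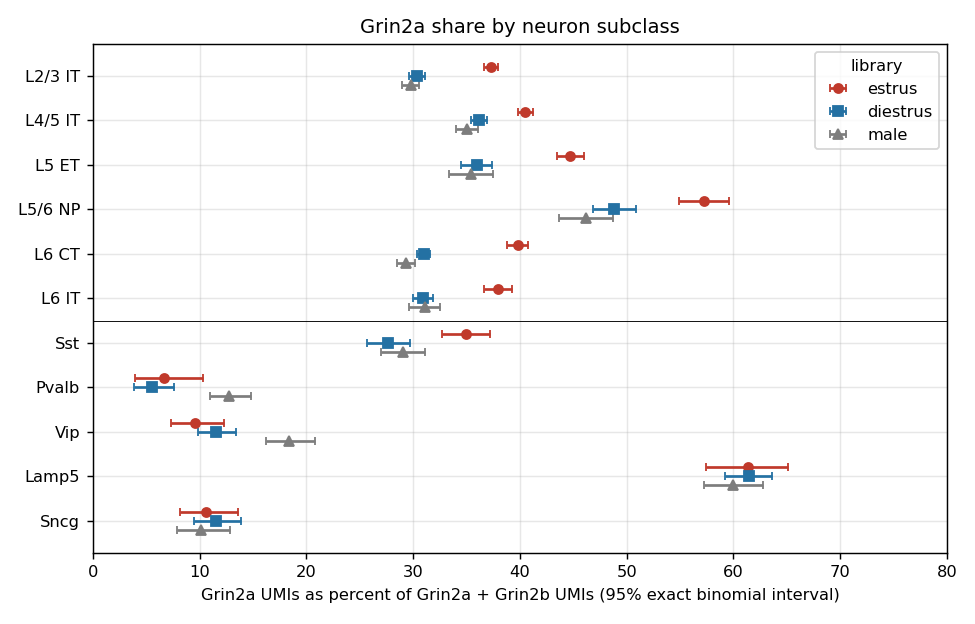
Share of Grin2a among Grin2a and Grin2b UMIs (x axis, percent) in each neuron class and library, with 95% Clopper-Pearson intervals that cover counting error. Lamp5 interneurons sit at 60.0% to 61.4% and Pvalb interneurons at 5.52% to 12.8%, and the estrus library lies to the right of both others in all 6 glutamatergic subclasses.

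Within every glutamatergic subclass the estrus library had the largest Grin2a share. It exceeded the diestrus library by 4.35 to 8.79 percentage points in 6 of 6 subclasses and the male library by 5.46 to 11.1 points in 6 of 6. Diestrus and male differed by -0.13 to 2.68 points. Among GABAergic subclasses estrus was above diestrus in 2 of 5, with Sst interneurons at 34.9%, 27.7% and 29.0%. In microglia, the reference class, the share was 35.6%, 30.8% and 31.8%. The subclasses come from the same 3 libraries, so their shared direction is not a replicate check, and no test between groups exists with 1 library each.

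Grin2c, the subunit of astrocytic and cerebellar receptors, was an astrocyte transcript in these cells. Astrocytes held 227 CPM in estrus (1612 UMIs), 164 in diestrus (732 UMIs) and 148 in male (906 UMIs). Glutamatergic neurons held 0.28, 0.73 and 0.86 CPM on 14, 34 and 23 UMIs. The difference of glutamatergic neurons from astrocytes was -8.20 ± 0.38 with an adjusted p of 2.01e-13, and -8.68 to -7.14 across the alternatives. Microglia held 0.80, 1.10 and 0.63 CPM, at least as much as glutamatergic neurons in 2 of the 3 libraries and less in male. The source of the neuronal trace was not tested.

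Of the other 16 classes compared, the highest library was pericytes of the male at 2.32 CPM. Some groups of barcodes that entered no test held more. Estrus border macrophages held 4 UMIs, estrus L6b neurons 2 UMIs and smooth muscle cells up to 2.996 CPM. Barcodes gated as erythroid held 14.2, 7.74 and 8.81 CPM. Barcodes given no class, which mix cell types, held 7.93, 7.76 and 15.7 CPM. Oligodendrocyte precursors held 2, 0 and 1 UMIs, and the 0 in diestrus allows up to 2.38 CPM. Lamp5 interneurons and L5 ET neurons held none in any library. A count of 0 allows up to 7.76, 3.74 and 5.79 CPM in Lamp5 interneurons and up to 0.90, 1.36 and 3.27 CPM in L5 ET neurons, so the limit is loose. Precursors passed the test against astrocytes (adjusted p = 1.36e-09), but the fitted size rests on 3 UMIs and is not given.

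Single astrocytes showed the same pattern. After each cell was thinned to 2000 UMIs, 33.5%, 27.6% and 24.9% of astrocytes held a Grin2c UMI, over 1261, 786 and 1273 cells that were deep enough. The share in microglia was 0.26%, 0.18% and 0.11%. As counted, the shares in astrocytes were 64.3%, 52.4% and 41.7% at medians of 5342, 5050 and 4055.5 UMIs, and in microglia 0.43%, 0.41% and 0.20% at medians of 5290.5, 4448.5 and 3231.5. Astrocytes with a UMI of Gfap, an intermediate filament gene, held less Grin2c (190.0, 83.0 and 91.0 CPM) than those without (232, 182 and 155 CPM) in each library. A Gfap UMI marks only some of the cells that express it, and this split has no test.

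**Figure D3:**
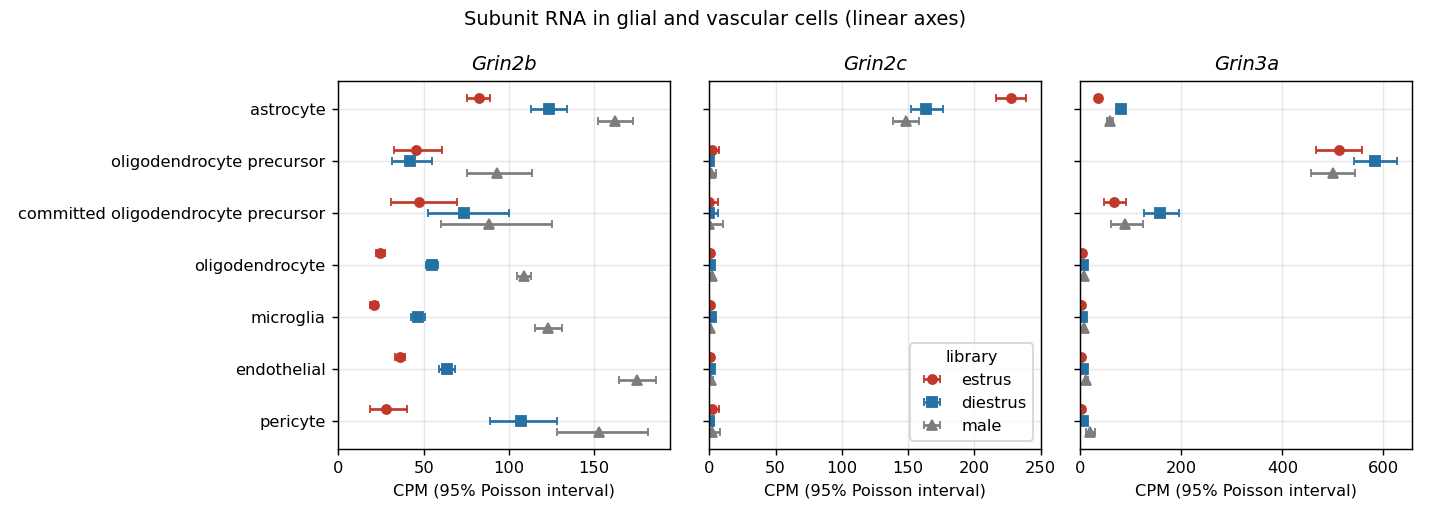
Levels of Grin2b, Grin2c and Grin3a in glial and vascular classes (x axis, CPM on linear axes with 95% Poisson intervals, symbols by library). Grin2c is found in astrocytes and Grin3a in oligodendrocyte precursors and, lower, in committed precursors, while Grin2b keeps the order estrus, diestrus, male in microglia, oligodendrocytes and endothelial cells.

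The other members in astrocytes were set beside glutamatergic neurons and microglia. Against glutamatergic neurons all 6 members were called, 4 higher and 2 lower in neurons, in a comparison that called 70.7% of all genes. Grin1 was 3.40 ± 0.24, Grin2a 5.74 ± 0.37 and Grin2b 3.40 ± 0.32 higher in neurons (adjusted p = 1.01e-10, 2.79e-11 and 9.11e-09). Astrocytic Grin2a, at 6.06, 9.84 and 27.8 CPM, was 0.48 to 0.52 times the microglial level. Astrocytic Grin2b, at 82.2, 123 and 162 CPM, was 3.93, 2.65 and 1.32 times the microglial level, above it by the most in estrus. Its mean was the highest of the glial and vascular classes compared. The range overlapped those of pericytes (27.9 to 153 CPM) and endothelial cells (36.0 to 175 CPM), and barcodes gated as erythroid held 267 to 335 CPM. How much of the astrocytic Grin2b is background was not tested. Grin3a in astrocytes was 35.5, 80.5 and 59.2 CPM against 1.95, 3.31 and 8.04 CPM in microglia. It was called higher than in glutamatergic neurons (neurons minus astrocytes -0.79 ± 0.31, adjusted p = 0.029), a call lost without the diestrus library (-0.62, 0.27), with DESeq2, without the filter and without the library term.

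Grin2d, a subunit of slow receptors with weak magnesium block, was a transcript of GABAergic neurons. It stood at 29.6, 36.7 and 37.1 CPM in GABAergic neurons and at 3.55, 3.71 and 6.05 CPM in glutamatergic neurons, with no overlap. The difference was -2.83 ± 0.19 (adjusted p = 4.74e-10), and -2.96 to -2.69 across the alternatives. Mean levels ran from 45.6 ± 5.98 CPM (SD over 3 libraries) in Lamp5 interneurons through 39.4 ± 4.96 in Vip, 36.7 ± 14.7 in Sncg and 28.9 ± 4.41 in Pvalb to 27.4 ± 1.47 in Sst interneurons. Each overlapped its neighbour, and no GABAergic subclass was called against the mean of the others, except Sst interneurons taken from clusters (-0.49, adjusted p = 0.030). Microglia held 0.86, 1.10 and 2.51 CPM.

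Oligodendrocyte precursors were the next of the classes compared for Grin2d. Fibroblasts, which entered no test, held a mean of 10.7 CPM (0 to 18.1 CPM over the libraries) on 18 UMIs. Precursors held 10.3, 11.1 and 11.6 CPM, below every GABAergic and above every glutamatergic subclass compared, on 10, 14 and 12 UMIs. Against astrocytes, at 1.55, 1.12 and 1.31 CPM, the difference was 2.80 ± 0.33 (adjusted p = 6.61e-07). Among glutamatergic neurons the low level was uneven. L4/5 IT neurons held 3.91, 5.26 and 9.79 CPM, 1.25 ± 0.25 above the mean of the others (adjusted p = 0.00035), and L2/3 IT neurons held 5.08, 3.94 and 6.57 CPM, 1.02 ± 0.26 above it (adjusted p = 0.0026). L5 ET neurons held 5, 2 and 0 UMIs and were called lower (-1.52 ± 0.53, adjusted p = 0.029). That call was lost without the diestrus library (-1.47, 0.12) or the male library (-1.11, 0.15) and moved to -2.41 (0.041) without the estrus library. It was also lost without the library term (-1.66, 0.059).

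Grin3a, the glycine-binding subunit that lowers calcium entry, had the widest spread among neurons. Sst interneurons, dendrite-targeting cells that release somatostatin, held 594, 735 and 820 CPM, the highest level of any class. They stood 3.84 ± 0.18 above the mean of the other GABAergic subclasses (adjusted p = 3.47e-13), and 3.80 to 4.22 across the alternatives. Vip interneurons held 236, 228 and 156 CPM, 1.63 ± 0.23 above the others (adjusted p = 1.19e-05). Pvalb interneurons held 15.3, 16.2 and 34.0 CPM and Sncg interneurons 8.49, 3.85 and 37.2 CPM, and they were 2.32 ± 0.34 and 3.06 ± 0.36 below the others (adjusted p = 1.71e-05 and 1.34e-06). The Pvalb values rest on 7, 11 and 37 UMIs and the Sncg values on 7, 3 and 24 UMIs. Sncg interneurons stood at 1.16 to 4.63 times the microglial level. Barcodes gated as erythroid held 5.25 to 16.7 CPM and smooth muscle cells 5.93 to 27.4 CPM, which overlapped the Pvalb and Sncg ranges. The part of background in these Grin3a values was not tested. Lamp5 interneurons lay between at 77.6, 107 and 52.1 CPM and were not called.

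In glutamatergic neurons Grin3a was lower as a whole, with 29.7, 31.1 and 36.1 CPM against 297, 265 and 323 CPM in GABAergic neurons (-3.04 ± 0.32, adjusted p = 2.96e-07). L5/6 NP neurons were highest with 69.3, 77.5 and 61.1 CPM, 1.70 ± 0.25 above the mean of the others (adjusted p = 5.74e-06). L6 CT neurons were lowest with 1.99, 7.06 and 8.14 CPM, 2.49 ± 0.25 below it (adjusted p = 1.32e-08). Those CT values were 1.0 to 2.1 times the microglial level. L2/3 IT neurons were 0.91 ± 0.18 above the others (adjusted p = 0.00020) and L4/5 IT neurons 0.60 ± 0.18 (0.015), the second of which was lost without the male library (0.42, 0.081), with DESeq2 (0.60, 0.22), without the library term (0.63, 0.11) and with classes taken from clusters in place of gates (0.07, 0.82). L6 IT neurons were not called (-0.66, 0.058) except without the estrus library (-1.01, 0.014), in the stricter gate and without the filter.

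Oligodendrocyte precursors, the dividing glia that receive synapses from neurons, held Grin3a at 511, 582 and 499 CPM. Only Sst interneurons were higher, with no overlap between the classes. Precursors stood 3.04 ± 0.33 above astrocytes (adjusted p = 2.33e-07), and 2.73 to 3.15 across the alternatives. The level was lower in committed oligodendrocyte precursors, at 65.8, 158 and 88.2 CPM in 35, 57 and 42 cells, and lower again in oligodendrocytes, at 2.92, 5.23 and 7.05 CPM. That last level was 0.88 to 1.58 times the microglial one. After thinning to 2000 UMIs, 63.3%, 60.2% and 60.2% of 128, 161 and 161 precursors held a Grin3a UMI, against 0.22%, 0.51% and 0.95% of microglia. As counted, the shares were 90.0%, 84.6% and 81.4% of 130, 169 and 183 precursors and 0.90%, 1.20% and 1.51% of microglia.

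Of the 6 members, 5 were called between precursors and astrocytes, against 40.3% of all genes. Grin2a was higher (1.31 ± 0.38, adjusted p = 0.0089) and Grin2b lower in precursors (-1.30 ± 0.33, 0.0034), while precursors held 33.9, 34.1 and 45.5 CPM of Grin2a, 0.79 to 2.94 times the microglial level, and 45.3, 42.0 and 92.9 CPM of Grin2b, 0.76 to 2.17 times it. The Grin2a call was lost without the estrus library (0.91, 0.16), without the diestrus library (1.10, 0.13) and in the stricter gate (0.22, 0.82), and the Grin2b call without the diestrus library (-1.22, 0.076). Both were also lost without the library term (1.18, 0.091, and -1.25, 0.10). Grin1 was not called (0.21, 0.58), with 21.6, 35.7 and 49.4 CPM in precursors. The obligatory subunit was thus 1.46 to 2.77 times the microglial level in the same cells that held Grin3a far above it.

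Counts of members called differed among subclasses, each out of 5 members because Grin2c was too low to test. Among glutamatergic subclasses 3 were called in L2/3 IT (37.8% of all genes), 2 in L4/5 IT (29.4%), 2 in L5 ET (31.3%), 4 in L5/6 NP (36.9%), 2 in L6 CT (29.3%) and 0 in L6 IT neurons (28.3%). Among GABAergic subclasses 2 were called in Sst (20.8%), 3 in Pvalb (28.2%), 2 in Vip (21.4%), 1 in Lamp5 (21.4%) and 4 in Sncg interneurons (21.9%). In L6 IT neurons edgeR gave an unadjusted p under 0.05 for 2 of the 5 members, and DESeq2 likewise called 0 with 2 under that unadjusted threshold.

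**Figure D4:**
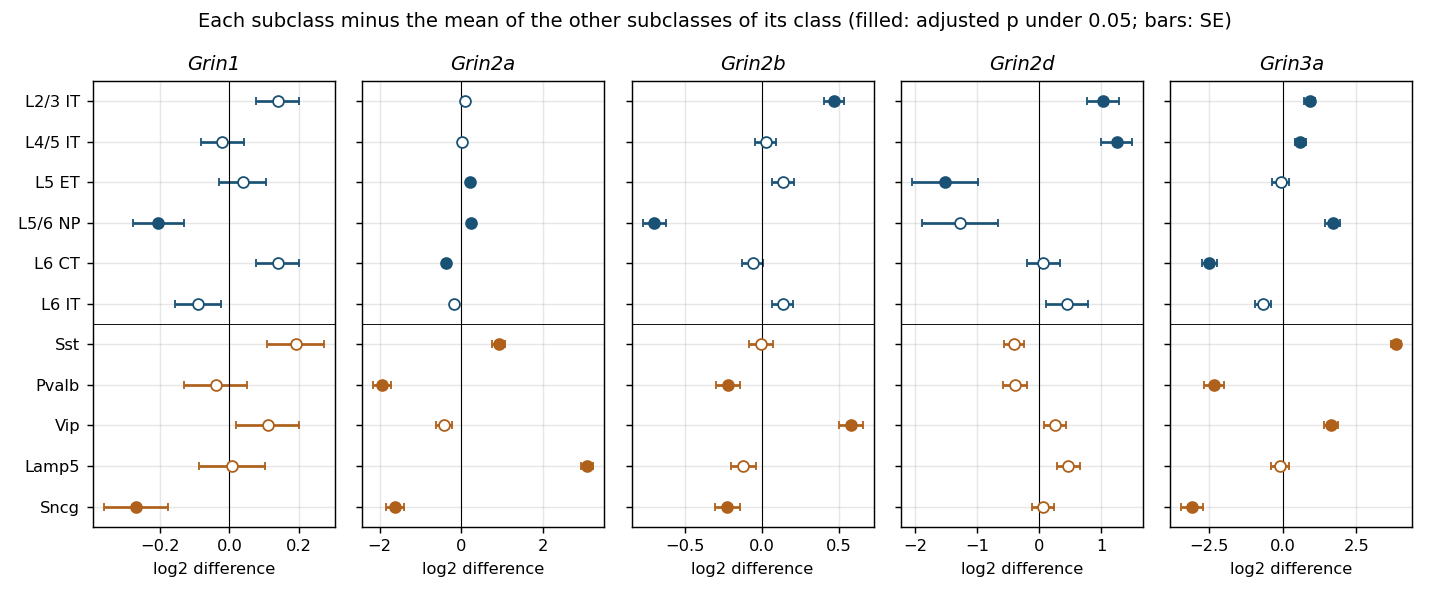
Log2 difference of each neuron subclass from the mean of the other subclasses of its class, by gene, with the standard error. Filled circles passed an adjusted p of 0.05, among them Grin2a in Lamp5 (3.07) and Pvalb interneurons (-1.94) and Grin3a in Sst (3.84) and Sncg interneurons (-3.06).

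Levels were then set side by side between libraries. With 1 library per group there is no replicate check, and each ratio compares 2 libraries, with 1 CPM added on both sides and a counting interval of the plain ratio. In glutamatergic neurons 4 members had a mean of at least 20 CPM and 100 UMIs. None of the 4 was past 1.5-fold in any pair, where 6.05% of all genes were past it for estrus over diestrus, 9.53% for estrus over male and 0.626% for diestrus over male. Grin1 was -0.24 (interval -0.28 to -0.21) in estrus over diestrus and -0.28 (-0.32 to -0.24) in estrus over male. Grin2b was -0.44 (-0.45 to -0.42) and -0.38 (-0.40 to -0.36), while Grin2a was -0.00 (-0.03 to 0.02) and 0.11 (0.09 to 0.14). Grin3a was -0.07 (-0.18 to 0.04) and -0.27 (-0.40 to -0.16). Diestrus and male lay within -0.21 to 0.12 for all 4.

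The libraries also differed with gene length. For genes within 1.5-fold of the length of Grin2a or Grin2b the median ratio of estrus over diestrus was -0.28, and for genes as long as Grin1 it was 0.06. Over male those medians were -0.34 for Grin2a, -0.35 for Grin2b and 0.04 for Grin1. Beside genes of its own length, Grin1 was thus lower in estrus in both pairs, Grin2a higher, and Grin2b lower, by least over male (-0.38 beside -0.35). The part of length in these ratios was not tested further. Grin1 was lower in estrus than in each other library in 11 of 11 neuron subclasses, and so was Grin2b. The subclasses come from the same libraries, so this shared direction is not a replicate check. How many of all genes were lower in every subclass was not counted. The Grin1 ratios ran from -0.42 to -0.00 over diestrus and from -0.54 to -0.06 over male, and the Grin2b ratios from -0.71 to -0.19 and from -0.85 to -0.26. Grin1 was never past 1.5-fold, and Grin2b was in 3 of 11 and 1 of 11. Grin2a ran from -0.84 to 0.30 (1 of 10 past it) and from -1.87 to 0.40 (2 of 11). Grin3a ran from -0.58 to 0.12 (0 of 6) and from -1.41 to 0.60 (2 lower and 1 higher of 6). Diestrus over male was -1.49 to 0.36 for Grin2a (2 of 11) and -0.85 to 1.02 for Grin3a (1 lower, 2 higher). By subclass 4.42% to 28.5%, 6.15% to 27.8% and 0.882% to 10.4% of genes were past it in these pairs.

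**Figure D5:**
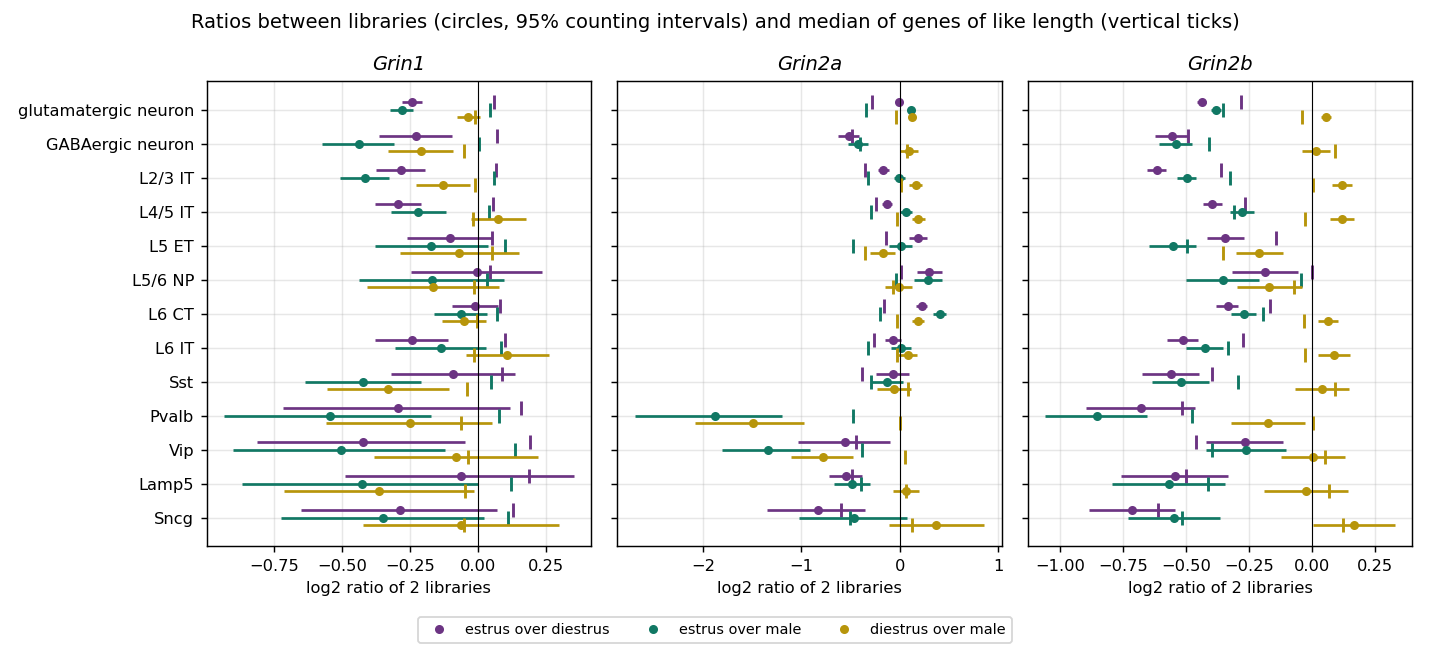
Log2 ratios of 2 libraries for Grin1, Grin2a and Grin2b in each neuron class (circles with 95% counting intervals), beside the median of genes of like length (vertical ticks). Grin1 and Grin2b circles for estrus over diestrus and over male lie below 0 in every row, and in glutamatergic neurons the Grin1 ticks lie near 0 (0.06 and 0.04) while the Grin2b ticks lie at -0.28 and -0.35.

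In GABAergic neurons taken as a whole 5 members passed the same minimum and none was past 1.5-fold, against 14.5%, 11.8% and 1.23% of genes. Estrus over diestrus was -0.56 for Grin2b and -0.52 for Grin2a, beside a median of -0.49 for genes of like length in both cases. Grin3a was 0.16 (0.05 to 0.27), beside -0.30 for genes of its length. Within Sst interneurons, its main source, Grin3a was -0.30 (-0.43 to -0.18). Sst interneurons made up 33.3% of GABAergic neurons in estrus and 20.7% in diestrus. The ratio over all GABAergic neurons therefore mixes level with subclass make-up, and the part of each was not tested.

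Glial classes were compared between libraries in the same way. In astrocytes 2 of 4 members with enough UMIs were past 1.5-fold for estrus over diestrus (10.6% of genes), 4 of 4 for estrus over male (12.1%) and 0 of 4 for diestrus over male (2.05%). Grin1 (-0.76 and -1.13) and Grin3a (-1.16 and -0.72) were lower in estrus, and Grin2b was -0.58 and -0.97. The microglial levels of Grin1, Grin2b and Grin3a were lowest in estrus as well, while microglial Grin3a was highest in male and astrocytic Grin3a in diestrus. The part of background in these ratios was not tested. Grin2c went the other way at 0.47 (0.35 to 0.60) over diestrus and 0.61 (0.50 to 0.73) over male, with a microglial level of 0.63 to 1.10 CPM. In oligodendrocyte precursors Grin3a was -0.19 (-0.36 to -0.02), 0.03 (-0.15 to 0.21) and 0.22 (0.06 to 0.39) in the 3 pairs, none past 1.5-fold, against 12.6%, 10.9% and 5.17% of genes. Grin2b there was past it for both pairs with male (-1.02 and -1.13), on 44, 53 and 96 UMIs. That gene stood at 0.76 to 2.17 times its microglial level, which was itself highest in male (20.9 to 123 CPM over the libraries). The part of background in this ratio was not tested either.

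Genes that work with the receptor were counted from 4 lists. The 20 postsynaptic scaffolds and kinases bound to the receptor stood higher in glutamatergic than in GABAergic neurons for 10 and lower for 1, with a median log2 difference of 0.67 against 0.07 over all genes. Ptk2b, a calcium-activated tyrosine kinase, was highest at 3.86 (adjusted p = 2.9e-07), with 189, 192 and 183 against 14.1, 18.5 and 10.985 CPM, and Camk2a, the kinase of synaptic plasticity, was next at 1.98 (1.1e-06). Nos1, the neuronal nitric oxide synthase, was lowest at -2.90 (1.1e-08), with 17.6, 16.3 and 12.997 against 159.9, 89.3 and 152 CPM. The next lowest, Fyn, was not called (-0.22, 0.34). Over astrocytes 18 of the 20 were higher in glutamatergic neurons and 1, Src, lower (-0.70, 0.00013), with a median of 2.94 against 0.01 over all genes. Actn2 (5.23), an actin crosslinker, and Shank2 (4.85), a scaffold, were highest there, and Fyn was level (0.02, 0.94).

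Co-agonist genes ran the other way. Of 10 tested genes for D-serine and glycine synthesis and transport, 1 was higher and 5 were lower in glutamatergic than in GABAergic neurons, and against astrocytes 1 was higher and 8 were lower (medians -1.13 and -3.09). Slc7a10, a transporter of D-serine and glycine, was the lowest against astrocytes (-8.72, adjusted p = 1.4e-14), with 0.40, 0.76 and 1.23 CPM in neurons against 388, 285 and 292 CPM. Phgdh, the first enzyme of serine synthesis, followed (-6.91, 1.2e-13), and was also the lowest against GABAergic neurons (-2.91, 1.5e-07). Srr, which makes D-serine, was higher in glutamatergic than in GABAergic neurons (0.64, 0.00089), while its difference from astrocytes was -0.12 (0.43). Slc6a9, a glycine transporter, was the one called higher in glutamatergic neurons than in astrocytes (0.66, 0.0023).

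Glutamate uptake genes divided by class. Against astrocytes 1 of 4 was higher in glutamatergic neurons, the neuronal transporter Slc1a1 (3.76, adjusted p = 1.8e-09), and 3 were lower, led by the astrocytic transporter Slc1a3 (-8.57, 2.6e-12) and the glutamine synthetase Glul (-5.94, 2.7e-13). Against GABAergic neurons Slc1a2 was higher (2.43, 2.7e-06) and Glul lower (-0.82, 0.010). Of the remaining listed genes, Grin3b was too low to test. Grina, listed for its name and not one of the subunit genes described above, was not called between neuron classes (0.08, 0.69). It was lower in glutamatergic neurons than in astrocytes (-0.38, 0.016). The share of all genes called in these 2 contrasts is given above.

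The member patterns were compared over the means of 17 classes on the log2(CPM + 1) scale, as a description with no test, since the classes share libraries. Grin1 and Grin2b were alike (Pearson r = 0.985), and Grin1 and Grin2a less so (0.870). Both Grin1 and Grin2b stood higher in every neuron subclass than in every glial and vascular class, and r includes that gap. Among neurons their orders differed. Vip interneurons ranked 4 for Grin2b and 8 for Grin1, and L5/6 NP neurons 10 and 5. Correlations of Grin2c with the other members ran from -0.55 to 0.07. Among 12230 genes, those most like Grin1 included Unc13a (0.996), a vesicle-priming gene, and Usp14 (0.993). Those most like Grin2b were Grin1, Unc13a (0.982) and Gm1043 (0.979). For Grin2a they were Gm15155 (0.968), D130043K22Rik (0.951) and Golga7b (0.950). For Grin2c they were C030018K13Rik (0.993), A330048O09Rik (0.990) and Pdzph1 (0.989), and for Grin2d Rpp25 (0.930), Gm14204 (0.911) and Gm47027 (0.906). No gene came as close to Grin3a, whose nearest were A430033K04Rik (0.829), Txndc15 (0.791) and Thoc1 (0.779).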

How the data were processed

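Droplet 3′ single-cell RNA sequencing (10x Genomics) was run on papain-digested mPFC, 1 library per group. The deposited values are UMI counts per gene and barcode, made by the authors with Cell Ranger against mm10; the submitters' processing notes name version 3.0.2 and the file headers 7.0.0. Use of intronic reads and strand: not given in the sources used here.

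Libraries held 14476, 18052 and 19555 barcodes and 152291602, 144738154 and 115632520 UMIs in estrus, diestrus and male. Barcodes with under 500 genes, over 15% mitochondrial UMIs or a Scrublet doublet score over 0.3 were removed (681, 726 and 779 for the score). Cells were gated on marker lists: a score of at least 0.15, with the next list at most 0.6 of the best (0.7 for neuron subclasses). Of the gated cells, 2.92%, 6.98% and 6.30% lay near a broad limit, and 11.7%, 8.48% and 9.35% of subclass cells near a subclass limit. For L5/6 NP neurons these were 16 of 39, 24 of 87 and 23 of 56 cells. Of the cells that clusters gave as L5/6 NP, 40.6% were also gated so. No subclass was given to 28.3%, 22.7% and 24.8% of glutamatergic neurons. All 7 astrocyte, all 7 GABAergic and 6 of 8 glutamatergic markers reached 20 CPM in their class. L4/5 IT rested on 3 of 5, and only 53.8% of its gated cells were also L4/5 IT in clusters. L6b had too few cells to test. Gate limits and minimum cell numbers (100 per library for classes, 10 for subclasses) were set after cell counts were seen.

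Counts were summed per library and class and tested with edgeR 4.0.16 (TMM, filterByExpr, quasi-likelihood, class plus library), with Benjamini-Hochberg adjustment over all genes tested and a threshold of 0.05. The library term takes up differences that all classes of a library share. The 3 libraries are of different groups, so the spread includes any difference of a class effect between groups. The pooled mice are not separable. Each p-value sets a class difference against the residual spread over these 3 libraries. That spread was estimated from all classes of a fit and shared in part across genes. A small p-value therefore does not measure how steady that difference was from library to library. The script was tested on simulated data. Ratios between libraries have no test; genes needed a mean of 20 CPM and 100 UMIs over both libraries, and like length means within 1.5-fold.

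Named genes were the 6 members, at most the 2 highest and 2 lowest of each related list per contrast and the 3 genes most like each member, of which 1 is not reported here. Members and lists were chosen with earlier results of these data known. Alternatives were DESeq2 1.42.0, no filter, no library term, clusters, doublets kept, stricter gates and each library left out. Promoters came from RefSeq (GRCm38.p6), and gene coordinates from GENCODE, in which 32235 of 32285 gene IDs matched.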

Additional observations from a re-analysis of the deposited data

Results flagged for a closer look

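Barcodes gated as erythroid, which should lack NMDA receptor RNA and entered no comparison, held UMIs of Grin1, Grin2a and Grin2b above the limit that a count of 0 allows. In estrus they held 82 UMIs of Grin1, 324 of Grin2a and 356 of Grin2b. In diestrus they held 290, 345 and 780, and in male 186, 408 and 722. Their levels were 61.5, 118 and 86.3 CPM of Grin1, all above the microglial level, at medians of 4931, 1010.5 and 853 UMIs per barcode. No test of the source of these UMIs was made.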

How the results depend on the processing

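No paired analysis was possible because each group had 1 library; library was a term of the class tests, and the fit without it is among the alternatives. Of 73 class differences 39 were called, 26 of these were called in every alternative that tested them, and none of the 39 reversed. Keeping doublets moved none of the 73 across the threshold. DESeq2 scaling moved the median of all genes from 0.07 to -0.05 for glutamatergic over GABAergic neurons and from 0.01 to -0.11 over astrocytes. Leaving out each library gave 2 to 5 members called between glutamatergic and GABAergic neurons (3 with all) and 3 to 5 between precursors and astrocytes (5 with all). Without the library term, 3 were called between precursors and astrocytes and 8, not 13, over the glutamatergic subclasses. The cause of these shifts was not tested.

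All reversals were of values not called as reported. For Grin2c between neuron classes clusters gave 0.48, and leaving out libraries -0.58 to 0.17. For L4/5 IT neurons the stricter gate gave 0.014 for Grin1, and clusters gave -0.29 (adjusted p = 0.0041) for Grin2a and -0.095 for Grin2b; leaving out libraries gave -0.077 to 0.0098, -0.056 to 0.060 and -0.0024 to 0.058. It gave -0.0018 to 0.15 for Grin2a in L2/3 IT, -0.22 to 0.34 for Grin2d in L6 CT and -0.20 to 0.26 for Grin2d in Sncg cells. For Grin3a in L5 ET, DESeq2 gave 0.083 and leaving out libraries -0.40 to 0.20. The stricter gate gave 0.17 for Grin2d in L5/6 NP. For Grin2b in Sst cells, no filter gave 0.040 and leaving out libraries -0.014 to 0.016. In Lamp5 cells, DESeq2 gave -0.0064 and no filter -0.030 for Grin1, and clusters 0.053 and the stricter gate 0.091 for Grin3a; leaving out libraries gave -0.035 to 0.058 and -0.62 to 0.57.

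Over the members passing in glutamatergic neurons, the median log2 ratio of estrus over diestrus was -0.16, and -0.29 with cells thinned to 5000 UMIs and -0.025 as a difference from genes of like length. Over male it was -0.28, and -0.21 with TMM factors, -0.21 with DESeq2 factors, -0.37 thinned, -0.33 without the filter and -0.049 against like length. Diestrus over male was 0.0096, and -0.014 with subclasses weighted alike, -0.0072 thinned and -0.068 without the filter. Depth limits Grin2c outside astrocytes and Grin2d in glutamatergic subclasses, which held 0 to 56 UMIs per library.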
